A study of Mus musculus with 27 samples.

Results

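The 46 genes described here are a set of DNA replication genes, chosen by symbol and found in all 3 count tables, out of 22729 genes that the tables share. They were sorted into 8 roles: origin licensing (10 genes), helicase activation (6), polymerases and primase (7), the sliding clamp and its loader (6), flap removal, ligation and single-strand binding (4), nucleotide supply (5), cyclin E and E2F (4), and chromatin and histone supply (4). Messenger RNA was sequenced from mouse models built around TAL1 and AKT(E17K). TAL1 is a transcription factor that many T-cell acute lymphoblastic leukaemias express, and AKT(E17K) is a mutant of the growth-signalling kinase AKT that is active without its upstream signal. Thymus came from C57BL/6 mice that had received a bone marrow transplant, with 3 mice in each of 4 groups. One group was labelled with TAL1 overexpression and was set against mice with an empty vector. Another was labelled with constitutive TAL1 together with AKT(E17K) and was set against mice with AKT(E17K) alone, so both groups of that pair carried AKT(E17K). The ages of the mice, the vector and its promoter, and the share of thymus cells that carried it are not in the labels. The other system was the ProT cell line, a single line in which TAL1 was to be switched on by 4OH tamoxifen through CreER and LoxP, with 3 libraries at each of 0, 6, 12, 18 and 24 h. All ProT libraries past 0 h had the drug, and no library of cells that received the drug without the TAL1 construct was analysed here.

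DNA replication starts when the origin recognition complex, with Cdc6 and Cdt1, loads rings of the MCM helicase onto DNA in G1. On entry into S phase, Cdc45 and the GINS complex join MCM to form the active helicase, and primase and the polymerases copy the strands behind it while the Pcna clamp, loaded by replication factor C, holds the polymerases on DNA. E2F transcription factors, freed when cyclin-dependent kinases inactivate RB, drive many of these genes, so that their messenger RNA is abundant in dividing thymocytes and leukaemia cells and scarce in resting T cells.

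Counts in genes came to 7155918 to 11302098 per library in TAL1-labelled mice, 3893990 to 5915285 in empty-vector mice, 2230143 to 2792084 with AKT(E17K) and TAL1, 2073752 to 3661056 with AKT(E17K) and 2660641 to 6599146 in ProT cells. Between replicates, the biological coefficient of variation fitted by edgeR was 22.0% for the TAL1 and empty-vector mice, 35.0% for the AKT(E17K) mice and 11.6% for ProT cells. The labels do not say that ProT libraries came from separate cultures, so in this line p-values reflect how much these libraries differ, which can be technical only. Mouse Tal1 counts did not follow the labels. They were 0 in all 6 mice labelled with TAL1 and in the empty-vector mice, while 1 AKT(E17K) mouse, m121, had 7. In ProT cells Tal1 stood at 1963 to 2068 CPM at 24 h against 2895 to 3098 CPM at 0 h, where CPM is the count scaled to a common library size. A TAL1 sequence outside the counted mouse gene would not be seen, and the labels do not give the construct's sequence, so groups are called by their labels. Libraries 1 of 6 h and of 12 h stood apart from the other libraries of their times. Of 10 thymocyte markers, Cd4, Cd8a and Cd8b1 had 0 counts in ProT cells at 0 h and at 24 h. In the same cells 6 of the 10, Cd3e, Cd3g, Rag1, Rag2, Lck and Dntt, had enough counts to be tested.

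The replication genes were higher in TAL1-labelled thymus than in empty-vector thymus. Of the 45 that passed the filter on low counts, 20 rose and 0 fell at an edgeR adjusted p under 0.05, while 2.16% of all 12357 genes tested rose and 2.88% fell. All 45 had a positive log2 fold change, with a median of 0.57, against a median of -0.00 over all genes tested. The ranges of the 2 groups did not overlap, with TAL1-labelled mice above, for 34 of the 45, against 11.7% of all genes tested. In CPM summed over the 46 genes, the TAL1-labelled mice M317, M318 and M319 stood at 5141, 6158 and 5138, against 3652, 3526 and 3575 in the empty-vector mice M311, M312 and M315. In whole tissue, fewer cells of a type and less RNA per cell cannot be told apart, so a higher value may reflect more cells that express the gene or more RNA in each.

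**Figure D1:**
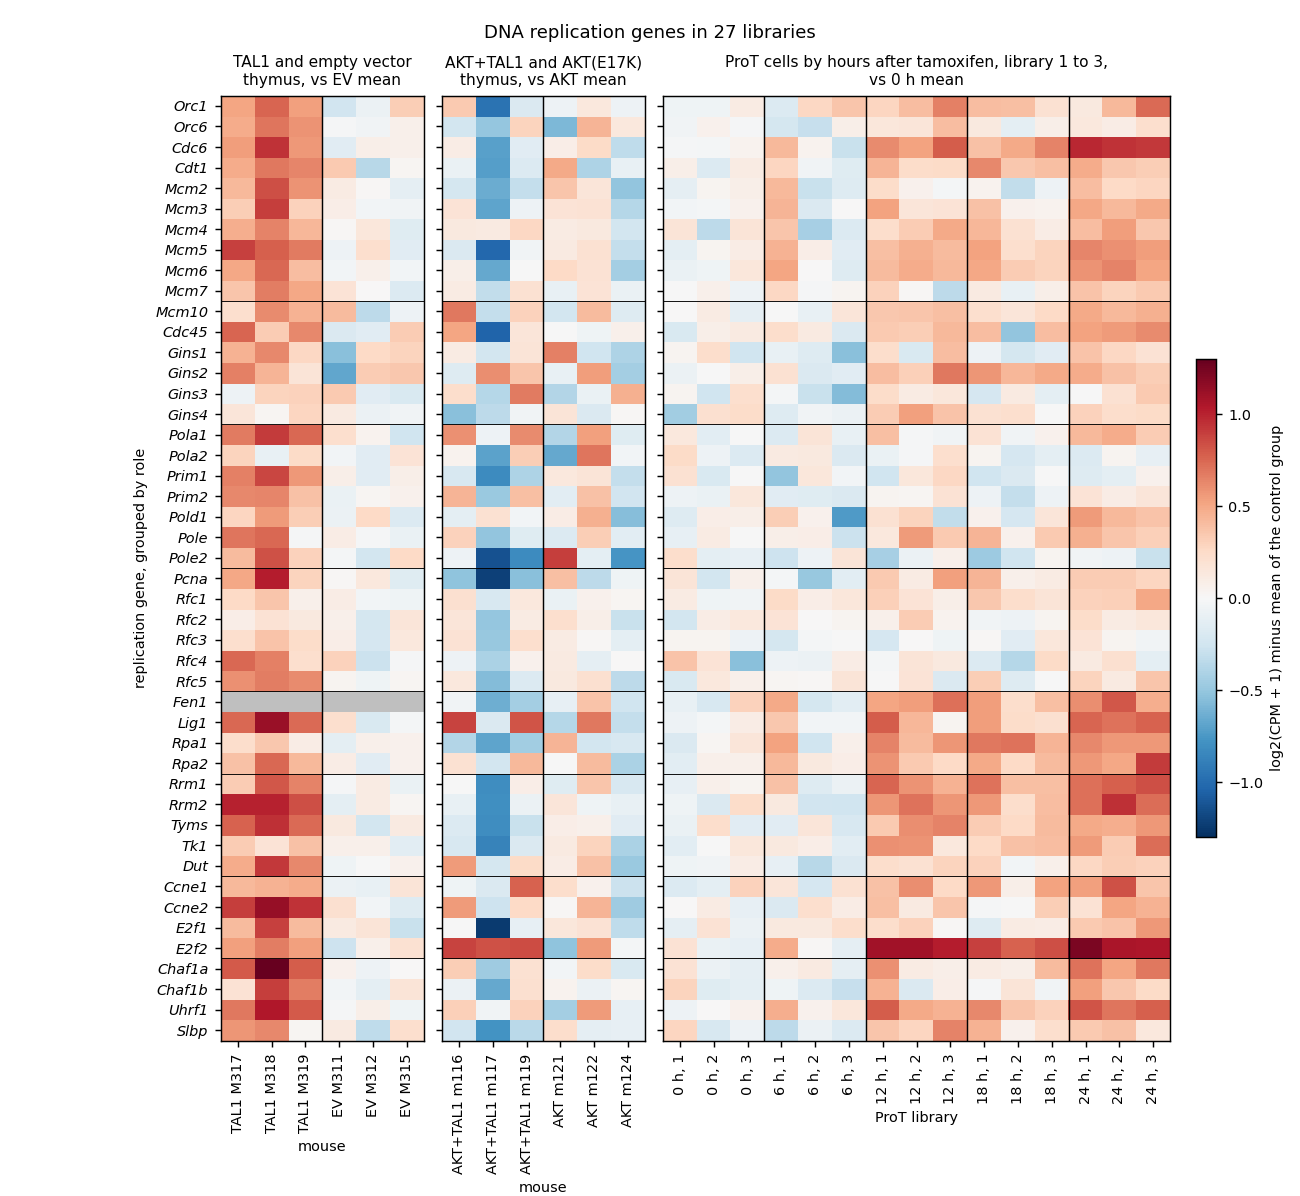
Relative level of each of the 46 replication genes (rows, by role) in each library (columns, by group): log2(CPM + 1) minus the mean of the empty-vector mice, the AKT(E17K) mice or the 0 h ProT libraries of its own table. The TAL1-labelled mice are above 0 for nearly all genes, the AKT(E17K) mice with TAL1 show no common shift, and many genes of the ProT libraries are above 0 from 12 h onwards.

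In origin licensing, all 10 genes had TAL1-labelled mice above empty-vector mice with no overlap, and 7 of the 10 passed the test. Mcm5, a subunit of the MCM helicase ring, was at 164, 152 and 141 CPM in TAL1-labelled mice and 84.3, 103 and 79.3 CPM in empty-vector mice (log2 fold change 0.78 ± 0.12 (SE), edgeR adjusted p = 0.00334). Its lowest TAL1-labelled mouse lay above its highest empty-vector mouse. Mcm6, another subunit, had 173, 204 and 162 CPM in TAL1-labelled mice, against 118.9, 128 and 119.1 CPM in empty-vector mice (log2 fold change 0.56 ± 0.11 (SE), edgeR adjusted p = 0.0120). For Mcm2, also in the ring, TAL1-labelled mice had 107, 144 and 119.8 CPM and empty-vector mice 86.0, 80.5 and 73.2 CPM (log2 fold change 0.63 ± 0.13 (SE), edgeR adjusted p = 0.0144). Both showed the same separation, and mouse M318 was the highest of the 6 for each. The ring subunits Mcm4 and Mcm7, Orc6, a subunit of the origin recognition complex, and Cdc6, which loads MCM, rose as well, with log2 fold changes of 0.52, 0.51, 0.60 and 0.71. The remaining members, the origin recognition subunit Orc1, the ring subunit Mcm3 and the loader Cdt1, had log2 fold changes of 0.64, 0.53 and 0.58 and did not pass (edgeR adjusted p = 0.242, 0.0621 and 0.0649).

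The promoters of 4 members are shown because these genes rose in TAL1-labelled thymus and in ProT cells at 24 h and differ in the motifs they hold. Windows of 300 bases, from 250 before to 50 after a transcription start, were taken from RefSeq on GRCm38.p6 and matched 38 of the 46 genes. The E2F words TTTCCCGC, TTTGGCGC, TTTCGCGC and TTTGCCGC and the NF-Y word CCAAT were searched on both strands, and capitals mark matches, so a match on the minus strand reads as its reverse complement. Mcm5, at chr8:75109259-75109558 on the plus strand, holds 2 E2F words on opposite strands that overlap each other, and Mcm6, at chr1:128359656-128359955 on the minus strand, holds such an overlapping pair and another E2F word. E2f2, at chr4:136172024-136172323 on the plus strand, holds 1 E2F word downstream of the start, and Rrm2, at chr12:24708004-24708303 on the plus strand, holds a CCAAT and none of the E2F words.
Mcm5: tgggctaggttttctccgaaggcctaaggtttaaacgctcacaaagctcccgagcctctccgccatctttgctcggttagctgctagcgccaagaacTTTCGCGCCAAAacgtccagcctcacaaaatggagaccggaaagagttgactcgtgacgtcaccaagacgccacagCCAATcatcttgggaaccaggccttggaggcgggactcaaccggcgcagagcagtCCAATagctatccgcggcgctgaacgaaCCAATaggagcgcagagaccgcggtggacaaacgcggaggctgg
Mcm6: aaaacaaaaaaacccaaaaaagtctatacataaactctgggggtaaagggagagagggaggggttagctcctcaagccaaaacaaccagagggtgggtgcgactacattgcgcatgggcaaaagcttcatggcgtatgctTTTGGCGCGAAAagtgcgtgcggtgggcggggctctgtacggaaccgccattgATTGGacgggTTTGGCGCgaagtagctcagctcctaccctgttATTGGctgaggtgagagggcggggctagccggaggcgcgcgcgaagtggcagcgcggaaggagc
E2f2: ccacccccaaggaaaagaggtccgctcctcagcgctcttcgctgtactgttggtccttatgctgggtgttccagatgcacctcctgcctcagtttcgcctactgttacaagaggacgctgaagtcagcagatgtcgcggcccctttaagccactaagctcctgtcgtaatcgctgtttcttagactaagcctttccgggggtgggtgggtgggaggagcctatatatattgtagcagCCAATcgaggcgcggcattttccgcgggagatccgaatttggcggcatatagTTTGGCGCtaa
Rrm2: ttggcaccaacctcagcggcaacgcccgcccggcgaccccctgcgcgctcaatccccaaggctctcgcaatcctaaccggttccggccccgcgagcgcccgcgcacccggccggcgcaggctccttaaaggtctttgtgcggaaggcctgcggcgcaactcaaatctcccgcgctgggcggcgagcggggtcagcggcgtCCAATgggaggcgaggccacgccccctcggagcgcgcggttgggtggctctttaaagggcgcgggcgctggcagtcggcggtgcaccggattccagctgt

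An E2F word was found in 15 of the 38 members with a window (39.5%), against 2.60% of 27025 genes. The words were concentrated in origin licensing, where 7 of 9 genes held one, and were found in 0 of 5 nucleotide supply genes. Among members that rose in TAL1-labelled thymus, 8 of 18 held an E2F word, against 7 of 19 members that did not pass. CCAAT was found in 23 of the 38 members (60.5%), against 41.1% of all genes. A match describes these letters in this window and shows no binding, and the absence of a match says only that these letters are not there.

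Helicase activation gave no call. All 6 genes had positive log2 fold changes, between 0.16 and 0.58, and 0 of 6 passed. Cdc45, which joins MCM in the active helicase, had the largest, with 41.2, 30.4 and 37.6 CPM in TAL1-labelled mice and 21.0, 21.6 and 30.3 CPM in empty-vector mice (log2 fold change 0.58 ± 0.21 (SE), edgeR adjusted p = 0.149). Mcm10, which helps start unwinding, and the GINS subunits Gins1, Gins2, Gins3 and Gins4 had log2 fold changes of 0.41, 0.43, 0.47, 0.16 and 0.16. A missed threshold does not show that these genes did not change. Among polymerases and primase, 2 of 7 rose. Pola1, the catalytic subunit of the polymerase that works with primase, was at 154, 182 and 162 CPM in TAL1-labelled mice and 112, 99.3 and 80.2 CPM in empty-vector mice (log2 fold change 0.77 ± 0.13 (SE), edgeR adjusted p = 0.00542). Prim1, the small primase subunit that makes RNA primers, was at 64.3, 75.2 and 60.5 CPM in TAL1-labelled mice and 42.8, 36.5 and 42.9 CPM in empty-vector mice (log2 fold change 0.71 ± 0.15 (SE), edgeR adjusted p = 0.0137). Neither gene had overlapping groups. The other 5, from Prim2, the large primase subunit, to Pole and Pold1, the catalytic subunits of the main leading and lagging strand polymerases, had log2 fold changes between 0.16 (Pola2, the accessory subunit that pairs with Pola1) and 0.56 (Prim2).

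Of the clamp and its loader, 1 of 6 passed, namely Rfc5, a loader subunit, with a log2 fold change of 0.64 ± 0.15 (SE, edgeR adjusted p = 0.0295). The other loader subunits, Rfc1, Rfc2, Rfc3 and Rfc4, had log2 fold changes of 0.23, 0.12, 0.27 and 0.62 and did not pass. Pcna, the sliding clamp itself, was at 115, 165 and 99.0 CPM in TAL1-labelled mice and 81.8, 88.7 and 72.6 CPM in empty-vector mice (log2 fold change 0.64 ± 0.17 (SE), edgeR adjusted p = 0.0528). Its groups did not overlap. Over 10 alternative settings its adjusted p by edgeR or DESeq2 lay between 1.16e-04 and 0.210, and it passed in 3 of the 10. Reads of Pcna and Tyms could be shared with pseudogenes (Pcna-ps1, Pcna-ps2 and Tyms-ps in the annotation), so both are uncertain to that extent. Lig1, the ligase that joins Okazaki fragments, had 674, 877 and 673 CPM in TAL1-labelled mice, against 469, 352 and 396 CPM in empty-vector mice (log2 fold change 0.87 ± 0.13 (SE), edgeR adjusted p = 0.00210). Its groups did not overlap, and Rpa2, a subunit of the protein that coats single-stranded DNA, also rose (log2 fold change 0.52), while Rpa1, the large subunit of that protein, had 0.23 and did not pass. Fen1, the flap endonuclease, could not be tested because nearly all its counts were 0 in this table.

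Nucleotide supply had the largest share of calls, 4 of 5. Rrm2, the regulated subunit of ribonucleotide reductase, was at 207, 207 and 185 CPM in TAL1-labelled mice and 94.3, 111 and 105 CPM in empty-vector mice (log2 fold change 0.95 ± 0.11 (SE), edgeR adjusted p = 6.64e-04). It had the smallest p of the 45, and the lowest TAL1-labelled mouse stood well clear of the highest empty-vector mouse. Tyms, thymidylate synthase, had 97.6, 111 and 95.6 CPM in TAL1-labelled mice, against 62.4, 48.1 and 62.1 CPM in empty-vector mice (log2 fold change 0.82 ± 0.14 (SE), edgeR adjusted p = 0.00461). Dut, which breaks down dUTP and so keeps uracil out of DNA, had 299, 406 and 329.7 CPM in TAL1-labelled mice, against 206, 213 and 222 CPM in empty-vector mice (log2 fold change 0.69 ± 0.11 (SE), edgeR adjusted p = 0.00449). Rrm1, the large reductase subunit, rose by a log2 fold change of 0.61, and Tk1, the thymidine kinase of the salvage route, had 0.30 and did not pass, although its groups did not overlap.

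In the cyclin E and E2F group, 2 of 4 rose and all 4 had groups that did not overlap. Ccne2, one of a pair of E-type cyclins that activate Cdk2 at entry into S phase, was at 101, 118 and 104 CPM in TAL1-labelled mice and 62.0, 52.0 and 47.3 CPM in empty-vector mice (log2 fold change 0.99 ± 0.14 (SE), edgeR adjusted p = 0.00156). E2f2, an activating E2F, was at 645, 709 and 647 CPM in TAL1-labelled mice and 370.1, 467 and 512 CPM in empty-vector mice (log2 fold change 0.57 ± 0.11 (SE), edgeR adjusted p = 0.0103). The other E-type cyclin, Ccne1, and the activating factor E2f1 had log2 fold changes of 0.46 and 0.60 with wider errors and did not pass. Chromatin and histone supply gave 2 calls of 4. Uhrf1, which brings the maintenance methyltransferase to new DNA, was at 178, 228 and 192 CPM in TAL1-labelled mice and 109, 116.01 and 106 CPM in empty-vector mice (log2 fold change 0.85 ± 0.12 (SE), edgeR adjusted p = 0.00148). Chaf1a, the large subunit of the chromatin assembly factor, had the largest fold of the 45, with 20.4, 41.7 and 20.2 CPM in TAL1-labelled mice and 11.8, 10.8 and 11.4 CPM in empty-vector mice (log2 fold change 1.27 ± 0.30 (SE), edgeR adjusted p = 0.0264). M318 stood well above its group mates for Chaf1a, whose exons overlap another gene as described further on. Without M318, Chaf1a did not pass. The other subunit, Chaf1b, and Slbp, which binds the stem loop of histone messenger RNA, had log2 fold changes of 0.63 and 0.41 and did not pass.

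**Figure D2:**
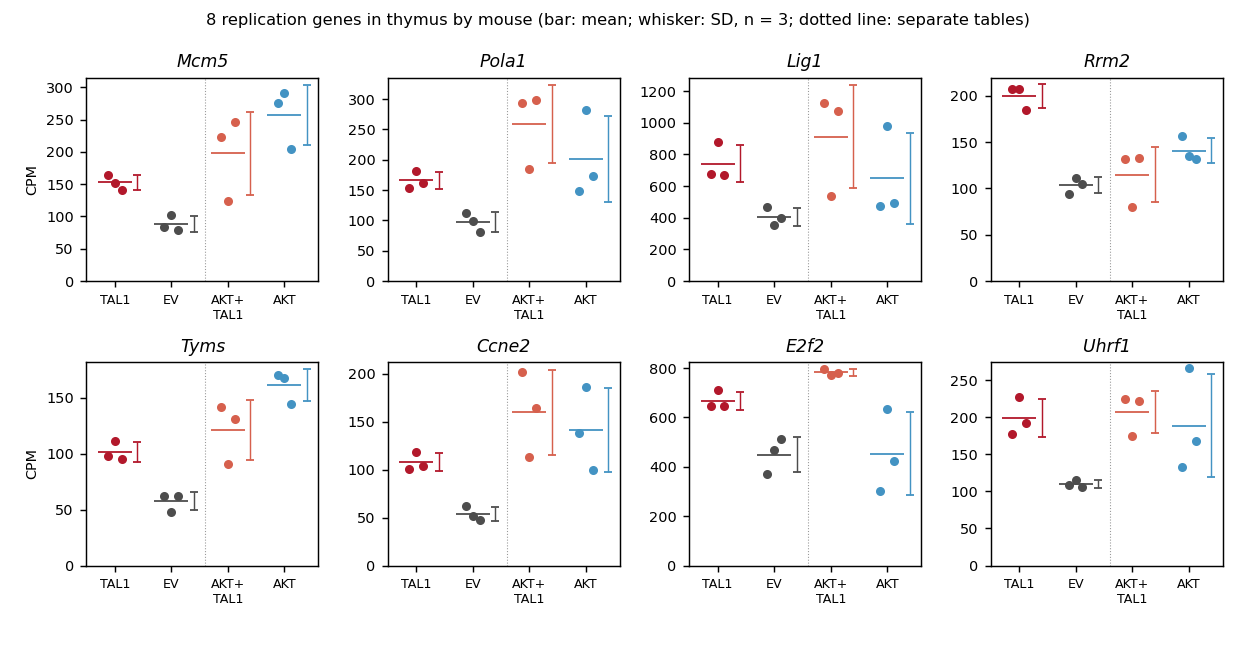
CPM of 8 replication genes in each of the 12 mice (points, with the group mean as a bar and the SD, n = 3, as a whisker), TAL1-labelled left of empty-vector mice and AKT(E17K) with TAL1 left of AKT(E17K) mice, each pair scaled within its own table. For Rrm2 the TAL1-labelled mice lie between 185.0 and 207 CPM and the empty-vector mice between 94.3 and 111 CPM, whereas for E2f2 the mice with TAL1 lie above their partners in both pairs. In the AKT(E17K) pair E2f2 did not pass (edgeR adjusted p = 0.655), and 6.18% of all genes tested separated in this direction.

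Other genes and single mice moved with this result. Of 65 other replication genes tested, in lists outside the 46, 14 rose and 1 fell. In those lists, 2 of 14 other licensing and firing factors, 5 of 18 other fork factors, 1 of 8 other nucleotide supply genes, 4 of 7 replication-coupled chromatin genes and 2 of 18 RB, E2F and G1/S regulators rose. Clspn, a fork checkpoint mediator, had a log2 fold change of 0.84 and Dna2, a flap nuclease, 1.03, while Samhd1, which breaks down dNTPs, fell by 2.62 on the log2 scale. On a list of 20 mitosis genes, 13 rose, among them Top2a with 0.78 and Mki67 with 0.76, and their summed level was 5260 to 6381 CPM in TAL1-labelled mice against 3370 to 3580 CPM in empty-vector mice. Of 6 markers of resting mature T cells, 5 fell, and their sum was 331 to 450.1 CPM in TAL1-labelled mice and 931 to 979 CPM in empty-vector mice. The sum of 10 thymocyte markers was 10122 to 11579 CPM in TAL1-labelled mice and 7807 to 9299 CPM in empty-vector mice, with 2 of 10 risen. The part of these cells in the replication result was not tested.

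M318 was the highest TAL1-labelled mouse for 36 of the 45 genes. Its median relative level, over the 46 genes on the log2(CPM + 1) scale against the mean of empty-vector mice, was 0.69, against 0.44 and 0.48 in the other TAL1-labelled mice. The same mouse had 368 CPM summed over 6 myeloid markers, while the other TAL1-labelled mice had 9.44 and 12.9 CPM and the empty-vector mice 14.1 to 28.8 CPM. Without M318, 8 genes passed the test, without the empty-vector mouse M315 9, and without the empty-vector mouse M312 12. The 8 were Rrm2, Uhrf1, Ccne2, Lig1, Mcm5, Dut, Tyms and Pola1. The calls of Orc6, Cdc6, Mcm4, Mcm7, Rfc5, Rpa2, Rrm1 and Chaf1a were thus lost without M318. Leaving out M318, M312 or M315 each ended the calls of Mcm2 and Prim1, with an edgeR adjusted p of up to 0.0837, leaving out M318 or M315 that of Mcm6, and leaving out M318 that of E2f2. The empty-vector libraries also had the larger share of reads in no annotated feature, and all TAL1-labelled mice lay below all empty-vector mice in it.

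Some members can lose or gain reads to a gene on the opposite strand, since the counting strand is not given in the sources used here. On the GRCm38 annotation, other genes overlap 84.2% of the exon length of Fen1 (Gm10143 and Tmem258), 67.3% of Gins2 (Gse1) and 52.5% of Chaf1a (Ubxn6). A smaller part is overlapped in Ccne2 (17.4%, Ints8), Rfc2 (15.1%, Lat2), Rfc4 (12.7%, Eif4a2), Mcm7 (12.6%, Ap4m1, Cops6 and the miRNAs Mir93 and Mir25), Orc1 (10.8%, Gm12743) and Rfc5 (10.7%, Wsb2). Scaled over all 27 libraries, Fen1 averaged under 1 CPM in both TAL1-labelled and empty-vector mice, 36.7 CPM in mice with AKT(E17K) and TAL1, 48.6 CPM where AKT(E17K) was alone and 48.7 CPM in ProT cells at 0 h. Gins2 had 5.51 and 3.97 CPM in TAL1-labelled and empty-vector mice, against 73.6 CPM with AKT(E17K) and TAL1 and 62.9 CPM with AKT(E17K). These genes were thus low or near 0 in one table and well expressed in the others, and whether counting or expression differed between tables was not tested. Of the 46 genes, 37 have less than 10% of their exon length in another gene, and 16 of the 20 genes that rose are among them.

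No replication gene passed the test between mice with AKT(E17K) and TAL1 and mice with AKT(E17K) alone. All 46 were tested, 0 passed, and 0 of 9782 genes passed by edgeR (0% higher, 0% lower), while 709 genes and 2 of the 46 had an unadjusted p under 0.05. DESeq2 called 76 genes and 0 of the 46. The median log2 fold change of the 46 was -0.14, with 18 positive, against -0.01 over all genes tested. Groups did not overlap for 1 gene with the mice with TAL1 above (6.18% of all genes tested) and for 4 genes with them below (5.72%).

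E2f2 had the smallest p of the 46. It was at 797, 771 and 781 CPM in mice with AKT(E17K) and TAL1 and 302, 634 and 424 CPM in AKT(E17K) mice (log2 fold change 0.79 ± 0.29 (SE), edgeR adjusted p = 0.655). The mice with TAL1 lay close together and above all AKT(E17K) mice, which were spread widely. Pcna went the other way, at 215, 133 and 212 CPM in mice with AKT(E17K) and TAL1 and 405, 244 and 298 CPM in AKT(E17K) mice (log2 fold change -0.76 ± 0.28 (SE), edgeR adjusted p = 0.655). Rpa1, Slbp, Prim1 and Tyms had log2 fold changes of -0.54, -0.46, -0.47 and -0.41 (edgeR adjusted p = 0.681, 0.701, 0.701 and 0.728). By role, medians lay between -0.29 for nucleotide supply and 0.20 for cyclin E and E2F.

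The mouse m117, with AKT(E17K) and TAL1, was the lowest of its group for 43 of the 46 genes, with a median relative level of -0.50 on the log2(CPM + 1) scale against the mean of AKT(E17K) mice, where its group mates m116 and m119 had 0.09 and 0.10. Among AKT(E17K) mice, m124 was lowest for 27 genes, with a median of -0.21. Without m117 the median log2 fold change of the 46 was 0.07, with 27 positive. Mitosis genes summed to 3697 CPM in m117, against 6685 and 5956 CPM in its group mates and 3385 to 6048 CPM in AKT(E17K) mice. Thymocyte markers summed to 6210 CPM in m117, against 4328 and 4040 CPM in its group mates and 3721 to 5379 CPM in AKT(E17K) mice. Myeloid markers summed to between 73.2 and 329 CPM in mice with AKT(E17K) and TAL1 and between 74.8 and 776 CPM in AKT(E17K) mice. Stromal and epithelial markers summed to between 4.66 and 12.0 CPM in mice with AKT(E17K) and TAL1 and between 10.3 and 299 CPM in AKT(E17K) mice, with m121 the highest for both lists. The part of these cells in the values was not tested.

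**Figure D3:**
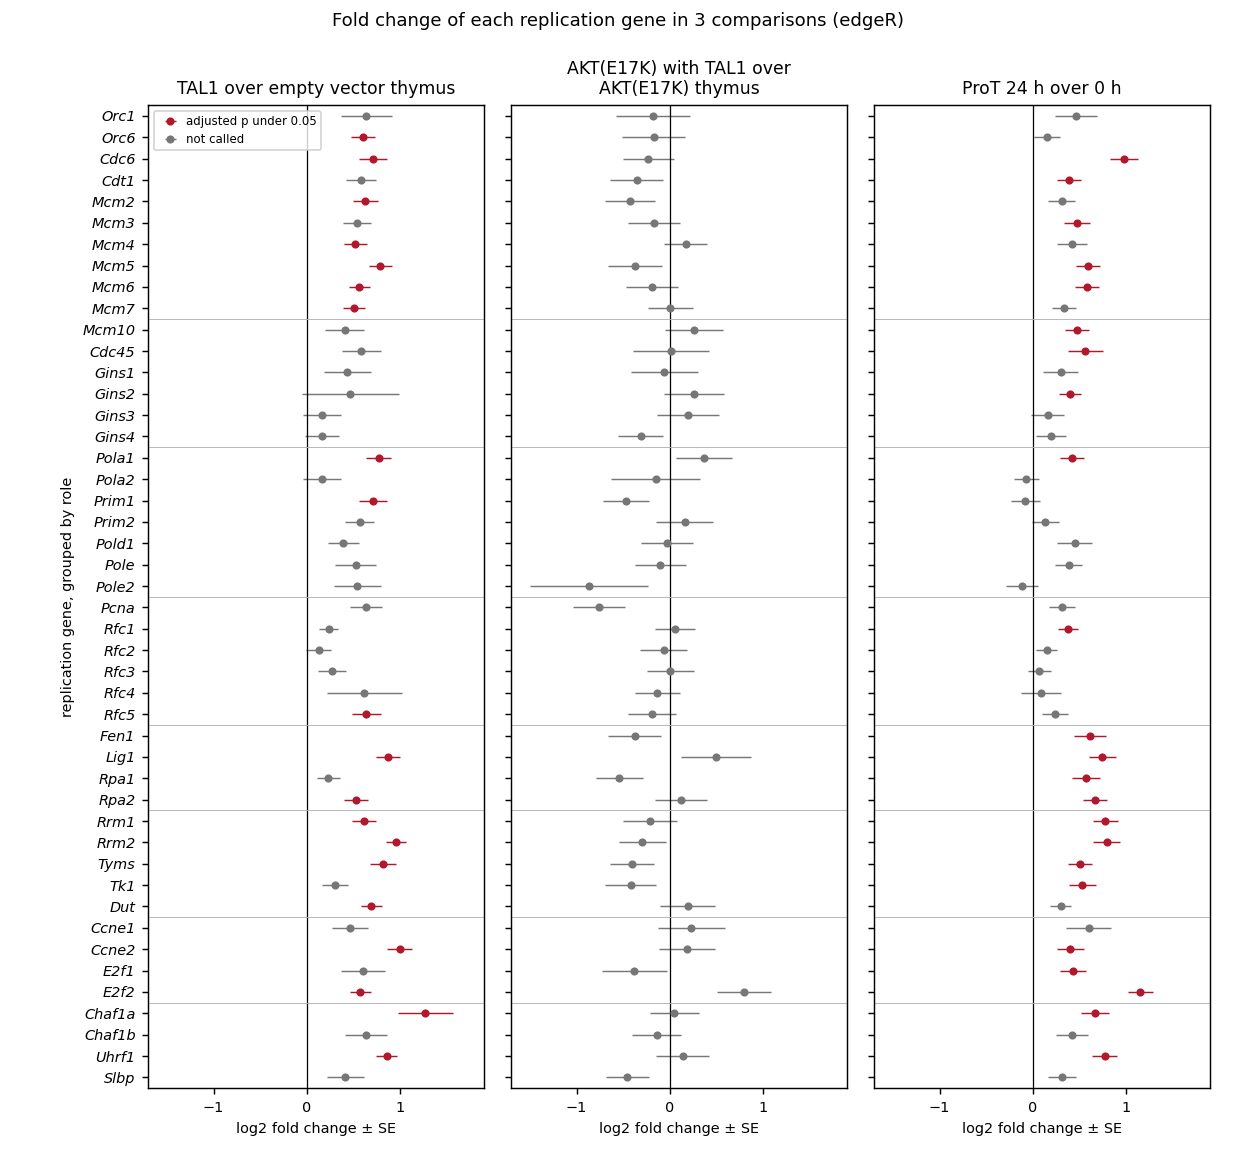
Log2 fold change ± SE (horizontal axes) of each replication gene (rows, by role) for TAL1-labelled against empty-vector mice, AKT(E17K) with TAL1 against AKT(E17K) mice, and ProT cells at 24 h against 0 h, with red points for genes past the edgeR threshold. All 45 tested genes are right of 0 in the first panel, 18 of 46 in the second, which runs from -0.87 to 0.79, and 43 of 46 in the third.

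The difference between the comparisons was tested over all 12 mice, as the log2 fold change of TAL1 with AKT(E17K) minus that without it. The difference was negative for 43 of the 46 genes, with a median of -0.68, but 0 passed, where 0.164% of 10947 genes passed, all higher. At an unadjusted p under 0.05 there were 19 of the 46 and 1189 of the 10947 genes. On the log2 scale, Rrm2 differed by -1.22 ± 0.27, Tyms by -1.20 ± 0.27 and Prim1 by -1.15 ± 0.28 (SE), with edgeR adjusted p = 0.124, 0.124 and 0.149. Pcna, Mcm5 and Mcm2 followed with -1.37, -1.13 and -1.03 (edgeR adjusted p = 0.160, 0.219 and 0.232). DESeq2 put 4 of the 46 past the threshold as lower, among 123 higher and 52 lower calls over all genes. Without the AKT(E17K) mouse m124, edgeR did so for 4 as well, among 105 higher and 68 lower calls. E2f2 stood apart from these, with a difference of 0.25. AKT(E17K) status and the experiment, which came as a separate table, cannot be told apart.

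In ProT cells no replication gene passed the test at 6 h, and from 12 h onwards part of the set was higher than at 0 h. At 6 h, 0 of 46 and 0 of 13610 genes passed (0% higher and lower), with a median log2 fold change against 0 h of 0.03. An unadjusted p under 0.05 was met by 0 of the 46 and 734 genes at 6 h, and DESeq2 called 1 gene, none of the 46. At 12 h, 15 of 46 rose and 0 fell, where 6.33% of all genes tested rose and 5.69% fell, and the median was 0.32. At 18 h, 7 rose and 0 fell (4.89% and 3.92% of all genes), with a median of 0.22. At 24 h, 23 rose and 0 fell (9.43% and 9.3% of all genes), with a median of 0.42. Positive values were found for 43 genes at 12 h, 36 at 18 h and 43 at 24 h. Ranges lay above those of 0 h without overlap for 23 genes at 12 h (14.8% of all genes) and 33 at 24 h (20.4%). These comparisons share the 0 h libraries.

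The counts leaned on single libraries. Without 0 h library 1, 7 genes passed at 12 h and 3 at 18 h, without 0 h library 2, 6, 2 and 15 passed at 12, 18 and 24 h, and without 18 h library 1, 1 passed at 18 h. Without library 1 of 6 h and of 12 h, a choice made after the data were seen, 12 passed at 18 h. Scaled by library size alone, 28, 12 and 35 genes passed at 12, 18 and 24 h. This scaling moved the median of all genes to 0.18, 0.13 and 0.17 on the log2 scale, and made 85.8%, 82.0% and 80.5% of all called genes higher, where 52.7%, 55.5% and 50.3% were higher with TMM. Relative to the median of all genes, the median of the replication genes was 0.33, 0.23 and 0.43 with either scaling. Tested over all times together, 21 of 46 genes differed, against 18.0% of all genes tested.

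E2f2 had the largest response of the 46. Its libraries had 37.6, 30.9 and 30.4 CPM at 0 h, 46.2, 33.1 and 30.3 CPM at 6 h, 71.0, 71.0 and 67.8 CPM at 12 h, 61.5, 56.7 and 59.3 CPM at 18 h and 77.9, 69.5 and 69.2 CPM at 24 h. All libraries from 12 h onwards stood above all of 0 h and 6 h. Relative to 0 h, its log2 fold change came to 1.10 ± 0.14 at 12 h, 0.86 ± 0.14 at 18 h and 1.15 ± 0.14 at 24 h (SE), with edgeR adjusted p = 9.13e-06, 2.85e-04 and 4.63e-06 in that order. Of the other genes of its role, E2f1 and Ccne2 passed at 24 h with log2 fold changes of 0.43 and 0.40, and Ccne1 had 0.60 and did not pass.

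Among licensing genes, 3 of 10 had risen at 12 h and 5 of 10 at 24 h, when all 10 lay above 0 h without overlap. Cdc6 had 42.6, 41.4 and 41.0 CPM at 24 h, against 20.9, 20.7 and 21.8 CPM at 0 h (log2 fold change 0.97 ± 0.15 (SE), edgeR adjusted p = 1.00e-04). Mcm5 had 118, 115 and 111 CPM at 24 h, against 69.0, 77.4 and 80.6 CPM at 0 h (log2 fold change 0.59 ± 0.13 (SE), edgeR adjusted p = 0.00186). Mcm6 had 240.4, 251 and 229 CPM at 24 h, against 151, 154 and 177 CPM at 0 h (log2 fold change 0.58 ± 0.13 (SE), edgeR adjusted p = 0.00288). Cdc6, Mcm5 and Mcm6 were thus the licensing genes that had risen at 12 h, with log2 fold changes of 0.66, 0.42 and 0.43 then. Over 13 alternative settings the 12 h call of Cdc6 held in all 13. That of Mcm5 was lost in 4 and that of Mcm6 in 3, each when a single library was left out. Their edgeR adjusted p then reached 0.126 and 0.115. Cdt1, called at 18 h as well, and Mcm3 were added at 24 h. Mcm2, Mcm4 and Mcm7, which had risen in TAL1-labelled thymus, had log2 fold changes of 0.31, 0.42 and 0.33 at 24 h and did not pass.

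Helicase activation gave 3 of 6 at 24 h: Mcm10, Cdc45 and Gins2, with log2 fold changes of 0.48, 0.56 and 0.40. In TAL1-labelled thymus these genes also had positive log2 fold changes, such as 0.58 for Cdc45, but did not pass. The biological coefficient of variation was 22.0% there and 11.6% in ProT cells. A call here and none there therefore does not show a different response. The call of Cdc45 was lost when any 1 of the 0 h or 24 h libraries was left out, with an edgeR adjusted p of up to 0.124. Gins2 also passed at 12 h and 18 h, with log2 fold changes of 0.47 and 0.50. The 12 h call was lost without 0 h library 1 or 12 h library 3 (edgeR adjusted p up to 0.0643). The 18 h call was lost without 18 h library 1 (edgeR adjusted p = 0.0633). Another gene overlaps 67.3% of the exon length of Gins2, and the part of that gene's reads in the counts of Gins2 was not tested. Polymerases, primase, the clamp and its loader gave few calls. Pola1 and Rfc1, the large loader subunit, were those that passed at 24 h, with log2 fold changes of 0.42 and 0.38, and 0 of these 13 genes passed at 12 h or 18 h. Over 13 alternative settings the 24 h call of Rfc1 was lost in 3, with an edgeR adjusted p of up to 0.0805. Pold1 had a log2 fold change of 0.45 ± 0.19 (SE, edgeR adjusted p = 0.0904). Against the direction of the other members, Pola2, Prim1 and Pole2, an accessory subunit of the polymerase that Pole drives, had small negative log2 fold changes at 24 h, -0.07, -0.08 and -0.12, and did not pass.

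Flap removal, ligation and single-strand binding had all 4 genes called at 12 h and at 24 h. Without 0 h library 2, the 12 h calls of all 4 were lost. For Lig1, 12 h library 3 lay within the range of the 0 h libraries. On the log2(CPM + 1) scale against the 0 h mean, its 12 h libraries had 0.79, 0.43 and 0.04. Those of 0 h ran from -0.07 to 0.10. At 12 h the calls of Fen1 and Rpa1 were each lost in 3 of 13 alternative settings, with an edgeR adjusted p of up to 0.153 for Fen1, without 0 h library 1 or 2 or 12 h library 3, and of up to 0.0942 for Rpa1, without 0 h library 1 or 2 or 12 h library 1. Lig1 had 335, 324 and 339 CPM at 24 h, against 189, 195 and 212 CPM at 0 h (log2 fold change 0.74 ± 0.14 (SE), edgeR adjusted p = 7.59e-04). Rpa2 had 121.8, 116.6 and 154 CPM at 24 h and 74.5, 85.9 and 85.7 CPM at 0 h (log2 fold change 0.66 ± 0.13 (SE), edgeR adjusted p = 7.39e-04), and Rpa1 had a log2 fold change of 0.57 ± 0.15 (SE, edgeR adjusted p = 0.00832). Fen1, untested in TAL1-labelled against empty-vector thymus, was at 46.002, 53.1 and 42.0 CPM at 24 h and 28.0, 25.8 and 37.2 CPM at 0 h (log2 fold change 0.61 ± 0.17 (SE), edgeR adjusted p = 0.0114). Other genes overlap 84.2% of its exon length, and the part of their reads in its counts was not tested. The groups of all 4 genes of this role did not overlap at 24 h. Nucleotide supply followed closely, with the same 4 of 5 genes called at 12 h and at 24 h. Over 13 alternative settings the 12 h call of Rrm1 held in all 13. That of Tk1 was lost in 6, with an edgeR adjusted p of up to 0.125. The 12 h call of Rrm2 was lost without 0 h library 2 and that of Tyms without 0 h library 3 (edgeR adjusted p = 0.0599 and 0.0513). Rrm1 had 149.7, 157 and 163 CPM at 24 h, against 84.1, 95.5 and 93.4 CPM at 0 h (log2 fold change 0.78 ± 0.13 (SE), edgeR adjusted p = 2.17e-04). Rrm2 had 44.2, 52.1 and 44.6 CPM at 24 h, against 25.5, 23.2 and 31.5 CPM at 0 h (log2 fold change 0.79 ± 0.14 (SE), edgeR adjusted p = 4.30e-04). Both reductase subunits were clear of their 0 h values in every library. Tyms and Tk1 rose by 0.51 and 0.53 on the log2 scale, and Dut had 0.30 (edgeR adjusted p = 0.0549).

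In chromatin and histone supply, Uhrf1 had 91.5, 84.1 and 89.1 CPM at 24 h, against 49.4, 51.9 and 53.7 CPM at 0 h (log2 fold change 0.77 ± 0.13 (SE), edgeR adjusted p = 1.96e-04). It had passed at 12 h and 18 h too, with log2 fold changes of 0.59 and 0.44. The call at 18 h was lost without any 1 of the 0 h libraries or without 18 h library 1 or 2, with an edgeR adjusted p of up to 0.211. Chaf1a, with 52.5% of its exon length overlapped by another gene, passed at 24 h with a log2 fold change of 0.66 ± 0.15 (SE, edgeR adjusted p = 0.00305). Slbp passed at 12 h with a log2 fold change of 0.45 and at 24 h had 0.31 and did not pass. Chaf1b did not pass at any time.

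**Figure D4:**
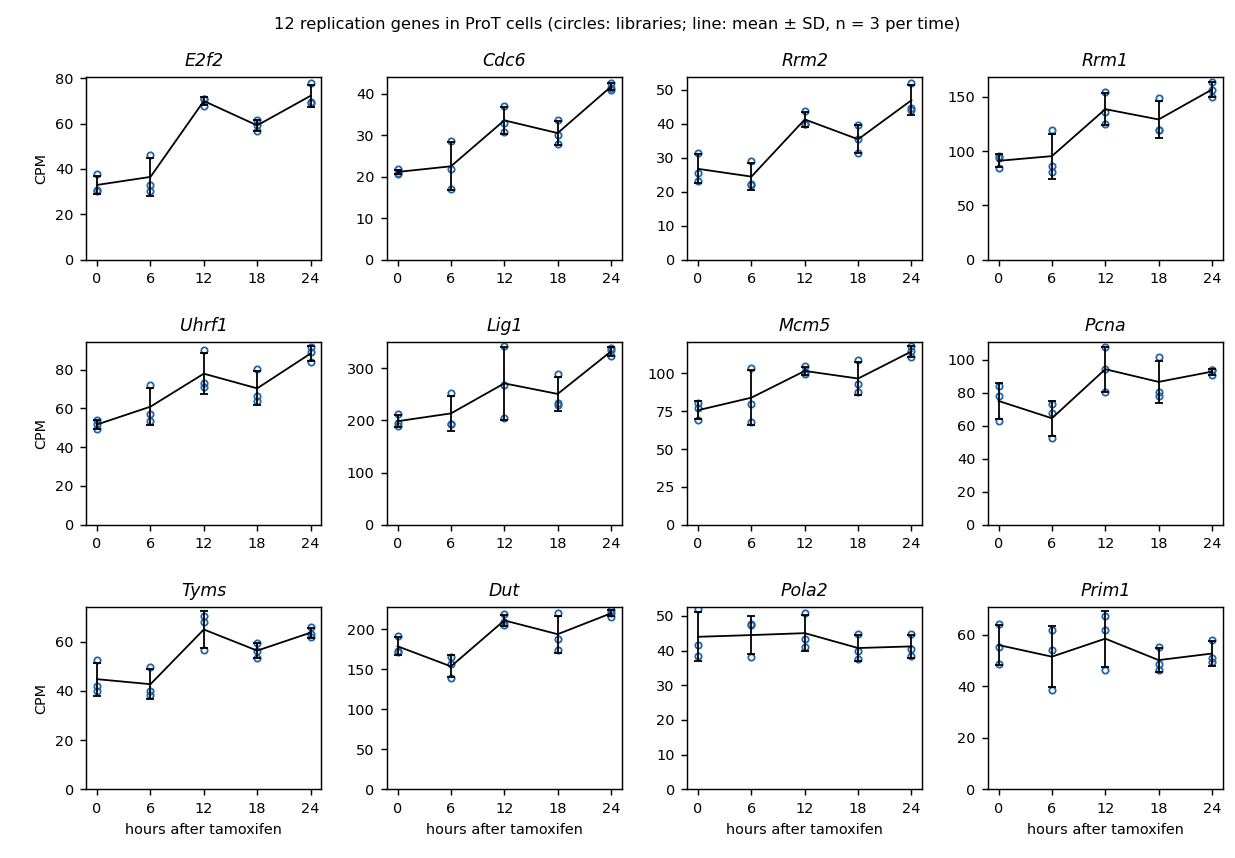
CPM of 12 replication genes in each ProT library (points) at 0, 6, 12, 18 and 24 h, with a line through the mean ± SD of the 3 libraries of each time. E2f2 is at 30.4 to 37.6 CPM at 0 h and 69.2 to 77.9 CPM at 24 h, and the line of most genes dips at 18 h.

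Neighbouring times were compared as well. At 12 h against 6 h, 12 of 46 genes rose and 0 fell (5.54% of all genes rose and 5.31% fell), among them all 5 nucleotide supply genes, with log2 fold changes such as 0.74 for Rrm2, 0.60 for Tyms and 0.46 for Dut. Over 13 alternative settings the calls of Rrm2 and Tyms held in all 13, while that of Dut was lost in 2, that of Rrm1 in 3 and that of Tk1 in 6. Without 6 h library 1, which was the highest 6 h library for 28 of the 46, 22 rose, and without 6 h library 2, 4 rose. With library size scaling 70.2% of all called genes were higher, against 51.0% with TMM. Pcna and Slbp also passed here, with log2 fold changes of 0.54 and 0.65. At 24 h against 12 h, 0 of 46 passed (0.0367% of all genes rose and 0.154% fell), with 7 of the 46 and 1157 of all genes at an unadjusted p under 0.05. Without 12 h library 1, 2 of the 46 passed, and the calls over all genes came to 90 higher and 123 lower, against 5 higher and 21 lower with it. Chaf1a, Mcm7 and Pola1 had the smallest p there, with log2 fold changes of 0.35, 0.31 and 0.29. The mean was highest at 24 h for 34 genes, at 12 h for 8, at 18 h for 3 and at 0 h for 1, Pole2. The mean at 18 h lay below that at 12 h for 39 of the 46, a difference not tested gene by gene.

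Mitosis genes rose at the same times. All 20 had risen at 24 h, 17 at 12 h and 11 at 18 h, and their sum lay between 1268 and 1332 CPM at 0 h and between 1323 and 1588 CPM at 6 h. It lay between 1883 and 2181 CPM at 12 h, between 1728 and 1910.1 CPM at 18 h and between 2152 and 2264 CPM at 24 h. Of the 68 other replication genes, 15 had risen and 3 fallen at 24 h. Those that rose included Ticrr, a firing factor, with a log2 fold change of 0.98, Dnmt1, the maintenance methyltransferase that Uhrf1 brings to DNA, with 0.70, Clspn with 0.64, and E2f8, a repressing E2F, with 0.81. Rb1, which holds E2F in check, fell by 0.97, and Mtbp, a partner of Ticrr, fell by 0.77 on the log2 scale. The share of reads in no annotated feature was 17.8% to 18.4% in the 24 h libraries and 21.1% to 22.2% in the 0 h libraries, and its part in the result was not tested.

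In ProT cells at 24 h, 23 of the 46 genes rose, where 9.43% of all genes tested rose. Of the 20 genes that rose in TAL1-labelled thymus, 13 also rose in ProT cells at 24 h, which is 65% of the 20 and 56.5% of the 23. They were Cdc6, Mcm5, Mcm6, Pola1, Lig1, Rpa2, Rrm1, Rrm2, Tyms, Ccne2, E2f2, Chaf1a and Uhrf1. Among them, Cdc6, Mcm6, Rpa2, Rrm1, E2f2 and Chaf1a did not pass in thymus without mouse M318. The systems share no library, and the direction of the whole list in each limits what such an overlap can show.

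Levels were also set side by side over all 27 libraries, per kilobase of exon, as a description, since the tables came from separate experiments. Summed over the 46 genes, CPM was 5912 to 7109 in TAL1-labelled mice and 3990.0 to 4204 in empty-vector mice, and 6233 to 9358 with AKT(E17K) and TAL1 and 6882 to 9488 with AKT(E17K). In ProT cells this sum lay between 4328 and 4491 CPM at 0 h and between 4188 and 4959 CPM at 6 h. It lay between 5205 and 5681 CPM at 12 h, between 4741 and 5474 CPM at 18 h and between 5874 and 5988 CPM at 24 h. Lig1 had the highest mean of the members in TAL1-labelled thymus, at 201 ± 31.3 CPM per kilobase (SD, n = 3), against 109 ± 16.8 in empty-vector thymus. In empty-vector thymus the ranges of mean ± SD overlapped for Lig1, E2f2 at 105 ± 16.4 and Dut at 101 ± 3.63 CPM per kilobase. Those of Lig1 and Dut, at 166 ± 26.5, overlapped in TAL1-labelled thymus too. In mice with AKT(E17K), Mcm7 led with 178 ± 17.6 CPM per kilobase, and with AKT(E17K) and TAL1 it was Lig1, at 236 ± 84.4, with Dut within its spread at 179 ± 47.8. These leading genes were within each other's spread in the AKT(E17K) mice, where Lig1 had 170.1 ± 73.3. In ProT cells Dut led, at 145 ± 2.68 CPM per kilobase at 24 h and 119.1 ± 6.72 at 0 h. E2f2 was 23.5 ± 1.56 CPM per kilobase in ProT cells at 24 h and 10.9 ± 1.33 at 0 h, below its level of 158 ± 8.40 in TAL1-labelled thymus and 105 ± 16.4 in empty-vector thymus.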

How the data were processed

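The values are whole-number counts of reads per gene, deposited by the authors for 27 libraries in 3 tables. The table of the AKT(E17K) mice held 22906 gene rows, and the others 46078 each. Per the submitters' processing notes, FastQC, HISAT2, SAMtools and HTSeq were used with the builds mm10 and GRCm38; their versions, the annotation and the strand setting are not given in the sources used here. RNA came from a Promega Maxwell extraction, per the labels' protocols. Counts were tested with edgeR 4.0.16 in R 4.3.3 (TMM, filterByExpr, quasi-likelihood F test, Benjamini-Hochberg adjustment over all genes that passed the filter, threshold 0.05), within each table, with time as a factor over the 15 ProT libraries. The scripts were tested on simulated data. The difference between the thymus comparisons was fitted over 12 mice. Standard errors were derived from the fold change and F. CPM used TMM library sizes. Promoter windows came from RefSeq, positions from GENCODE. Alternatives were DESeq2 1.42.0, other scaling, no filter, libraries left out and a replicate block. Members and lists were chosen with earlier results of these data known. Genes named with full values were, per comparison, the 12 called members with the smallest p, the largest change of any role without one, members against the majority, or, without calls, the 6 with the smallest p. Rfc5, and members named to complete a role, were added after their values were seen. HTSeq summary lines, absent from the counts of the AKT(E17K) mice, were left out. Compared within each group, no 2 libraries agreed within sampling noise.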

Additional observations from a re-analysis of the deposited data

How the results depend on the processing

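Named genes that passed kept their direction under every alternative run. The median log2 fold change of the 46, which has no test, changed sign with AKT(E17K), from -0.21 to 0.07 over libraries left out (0.07 without m117), and at 6 h, from -0.06 to 0.13. Leaving out 1 library at a time gave 8 to 20 genes higher in TAL1-labelled thymus. In ProT cells it gave 6 to 11 higher at 12 h, between 1 and 6 at 18 h, and 15 to 18 at 24 h. It gave 4 to 22 higher at 12 h against 6 h, 0 to 2 at 24 h against 12 h, and 0 to 4 lower in the difference between the thymus comparisons. Library size scaling gave 28, 12 and 35 genes higher at 12, 18 and 24 h. Without library 1 of 6 h and of 12 h, chosen after seeing the data, 12 were higher at 18 h and 5 at 24 h against 12 h. Fitting only the 2 times compared gave 12 at 18 h and 4 at 12 h against 6 h. DESeq2 gave 4 lower in the difference between the thymus comparisons. The cause was not tested. Calls kept in every alternative were 8 of 12 named genes for TAL1-labelled thymus, 4 of 12 at 12 h, 1 of 7 at 18 h, 12 of 14 at 24 h and 4 of 12 at 12 h against 6 h.

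Over all genes, calls ran from 337 to 1107 for TAL1-labelled thymus (623 as reported) and from 1447 to 3802 at 24 h (2549). A replicate block by library number gave 14, 7 and 26 genes higher at 12, 18 and 24 h and 14 at 12 h against 6 h. The ProT numbers share only a label: deviations of same-numbered libraries correlated at -0.14 to 0.21, with 1 of 30 over 0.1, and 3 of 15 libraries correlated best with their own number. The mice share no numbers. Of the 3 tables, that of the AKT(E17K) mice had the largest biological coefficient of variation, 35.0%.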

Other observations

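The promoter words were also counted in the other lists, as a description of sequence. An E2F word was found in 1 of 17 mitosis genes with a window (5.88%), against 15 of 38 replication genes (39.5%) and 18 of 57 other replication genes (31.6%). CCAAT was found in 15 of 17 mitosis genes (88.2%), against 23 of 38 replication genes (60.5%). Genes of both the mitosis list and the replication set rose in TAL1-labelled thymus and in ProT cells at 24 h.

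Several members differed between tables by more than they differed within one. Rfc4 averaged 7.81 and 4.97 CPM in TAL1-labelled and empty-vector thymus, 46.2 and 51.5 CPM in thymus with AKT(E17K) and TAL1 and with AKT(E17K), and 24.998 CPM in ProT cells at 0 h. Chaf1a averaged 31.7 and 12.9 CPM in TAL1-labelled and empty-vector thymus, 109 and 107 CPM in thymus with AKT(E17K) and TAL1 and with AKT(E17K), and 46.004 CPM in ProT cells at 0 h. Both overlap a gene on the opposite strand, and the part of counting in these values was not tested.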
